A study of Sus scrofa domesticus with 9 samples.

Results

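The genes described here are 10 genes of iron and haem handling, TF, HPX, HP, CP, HAMP, TFRC, SLC40A1, FTH1, FTL and HMOX1, measured in pig lung. They were chosen as a list of names, with no threshold on their values but with earlier results of these data known, and they are 10 of the 35670 genes in the deposited table. The table names 8 of them, and FTH1 and HP stand in it as unnamed rows (ENSSSCG00000014540 and ENSSSCG00000002749) that were found by the position of the RefSeq genes on the same strand of the same genome build, Sscrofa11.1.

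Lung RNA of 9 female pigs was sequenced from the 3′ ends of transcripts, with 1 library per animal. The sample labels give the animals as female, whereas a passage of the study's text speaks of males, and the labels were followed. The 5 animals of the increased dose group ate grower feed with 3000 IU of cholecalciferol (vitamin D3) per kg, followed by finisher feed with 2500 IU per kg. The 4 animals of the standard dose group ate the same kinds of feed with 2000 and then 1500 IU per kg. All were kept in individual pens, ate feed that otherwise did not differ, and were slaughtered after 88 days, when the middle part of the upper lobe of the left lung was taken. The breed and the age at slaughter are not given in the sources used here, and the purpose of the comparison was to learn how lung RNA differs under long supplementation above the standard dose.

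Iron travels in blood bound to transferrin and enters cells through the transferrin receptor. Ferritin, a shell of heavy and light chains, stores it, and ferroportin, the only known cellular iron exporter of mammals, releases it until the liver hormone hepcidin binds ferroportin and removes it from the membrane. Haptoglobin and hemopexin carry free haemoglobin and haem in plasma, and haem oxygenase 1 breaks haem down in cells. In lung, macrophages of the airspaces take up much of the iron and haem that reaches the tissue, while transferrin, hemopexin, haptoglobin, ceruloplasmin and hepcidin are made above all in the liver.

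Several of these genes share a sequence signal, shown here because it was found in 4 of the 5 genes that act inside cells. TFRC is counted among the 4 from a wider search that was read out for that gene alone. The iron-responsive element is a short hairpin in an untranslated region, and the iron regulatory proteins bind it when iron is scarce. At the 5′ end of a transcript this blocks translation, and behind the coding sequence of the transferrin receptor it protects the RNA from decay. Matches were found for FTH1, FTL and SLC40A1 in the 5′ untranslated region and for TFRC behind the stop codon, printed 5′ to 3′ on the transcript strand with the 6 bases of the loop in capitals.
FTH1: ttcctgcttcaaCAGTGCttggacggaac
FTL: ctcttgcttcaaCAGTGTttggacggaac
SLC40A1: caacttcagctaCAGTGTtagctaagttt
TFRC, element 1: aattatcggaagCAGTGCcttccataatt
TFRC, element 2: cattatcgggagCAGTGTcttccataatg
TFRC, element 3: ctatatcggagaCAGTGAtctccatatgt
TFRC, element 4: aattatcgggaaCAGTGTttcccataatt

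The letters searched were a C, then any 5 bases, the loop CAGTGN and any 5 bases, on the transcript strand alone, with the 5 bases on either side of the loop required to pair and G to T pairs allowed. The FTH1 match lies at chr2:9535175-9535203 on the plus strand, the FTL match at chr6:54231194-54231222 on the plus strand, and the SLC40A1 match at chr15:94161660-94161688 on the minus strand. The 4 TFRC matches lie on the plus strand at chr13:133998466-133998494, chr13:133998876-133998904, chr13:133998941-133998969 and chr13:133998988-133999016. FTH1 and FTL differ at 3 of 29 bases of the element, whereas SLC40A1 differs from FTH1 at 16 and from FTL at 15. Such a match stands in the 5′ untranslated region of 71 of 18331 RefSeq genes (0.387%), against 3 of the 10 genes here. In the RefSeq 3′ untranslated region it stands in 126 of 18749 genes (0.672%), against 0 of the 10. The RefSeq 3′ untranslated region of TFRC is only 53 bases long and holds none, so the TFRC matches come from a window of 2775 bases that runs from its stop codon to the end of the Ensembl gene. A window of that length behind the stop codon holds a match in 285 of 20632 genes (1.38%), and of the 10 genes it was read out for TFRC alone. Sequence matches of this kind are a description of the letters, and the RNA counts below do not measure binding.

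Between 4253502 and 5919294 reads fell in genes per library, and 1 read was worth 0.853 to 1.49 normalized counts, which are read counts that the authors divided by a size factor per library. Markers of type 1 and type 2 pneumocytes, endothelium and macrophages were detected in all 9 libraries, so the labelled tissue is present in each. A pair of standard dose libraries stood apart from the rest. Replicate 9 had a summed count of 15 hepatocyte markers of 278186, against 23623 to 49573 in the increased dose libraries and 41861 to 45991 in standard dose replicates 17 and 33, with 14 of the 15 markers highest there and none at 0 in any library. Its type 2 pneumocyte markers summed to 4091, against 15975 to 29332 at the increased dose and 16939 to 18607 in the other 3 standard dose libraries. Replicate 41 had 87510 for the hepatocyte markers, the highest sum of skeletal muscle markers at 228164, and the lowest of macrophage markers at 3921, against 14350 to 22953 at the increased dose. The changes of the 10 genes and the ratios to ALB are given without replicate 9 and without both libraries, and those of the pathway genes that turn on replicate 9 without that library alone.

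Across the 12446 genes tested, limma called none between the doses (0% at an adjusted p under 0.05, smallest adjusted p 0.397), and none of the 10 genes was called. At an unadjusted limma p under 0.05 stood 1514 genes (12.2%), with 821 (6.6%) lower and 693 (5.57%) higher at the increased dose. Of the 10 genes, 5 were lower at that level and 0 higher, namely TF, HPX, HP, CP and HAMP, which are the plasma proteins and the liver hormone. With edgeR, 0 genes were called and 1873 (15%) had an unadjusted p below 0.05. DESeq2 called 168 lower (1.35%) and 27 higher (0.217%), of which TF was the 1 member, and returned no p for 355 genes (2.85%), HPX, HP, HAMP and SLC40A1 among them. Without standard dose replicate 9, limma called 0 of 12242 genes (0%), while 600 (4.9%) were lower and 537 (4.39%) higher at an unadjusted p under 0.05. Of the 10 genes, 4 were then lower (TF, HPX, HP and HAMP) and 2 higher (FTH1 and HMOX1) at that level. The fitted change was negative for 8 of the 10 genes, with a median of −0.92 on the log2 scale, against 49.2% negative and a median of 0.0084 over all genes tested. Without standard dose replicate 9 the median of the 10 was −0.40.

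**Figure D1:**
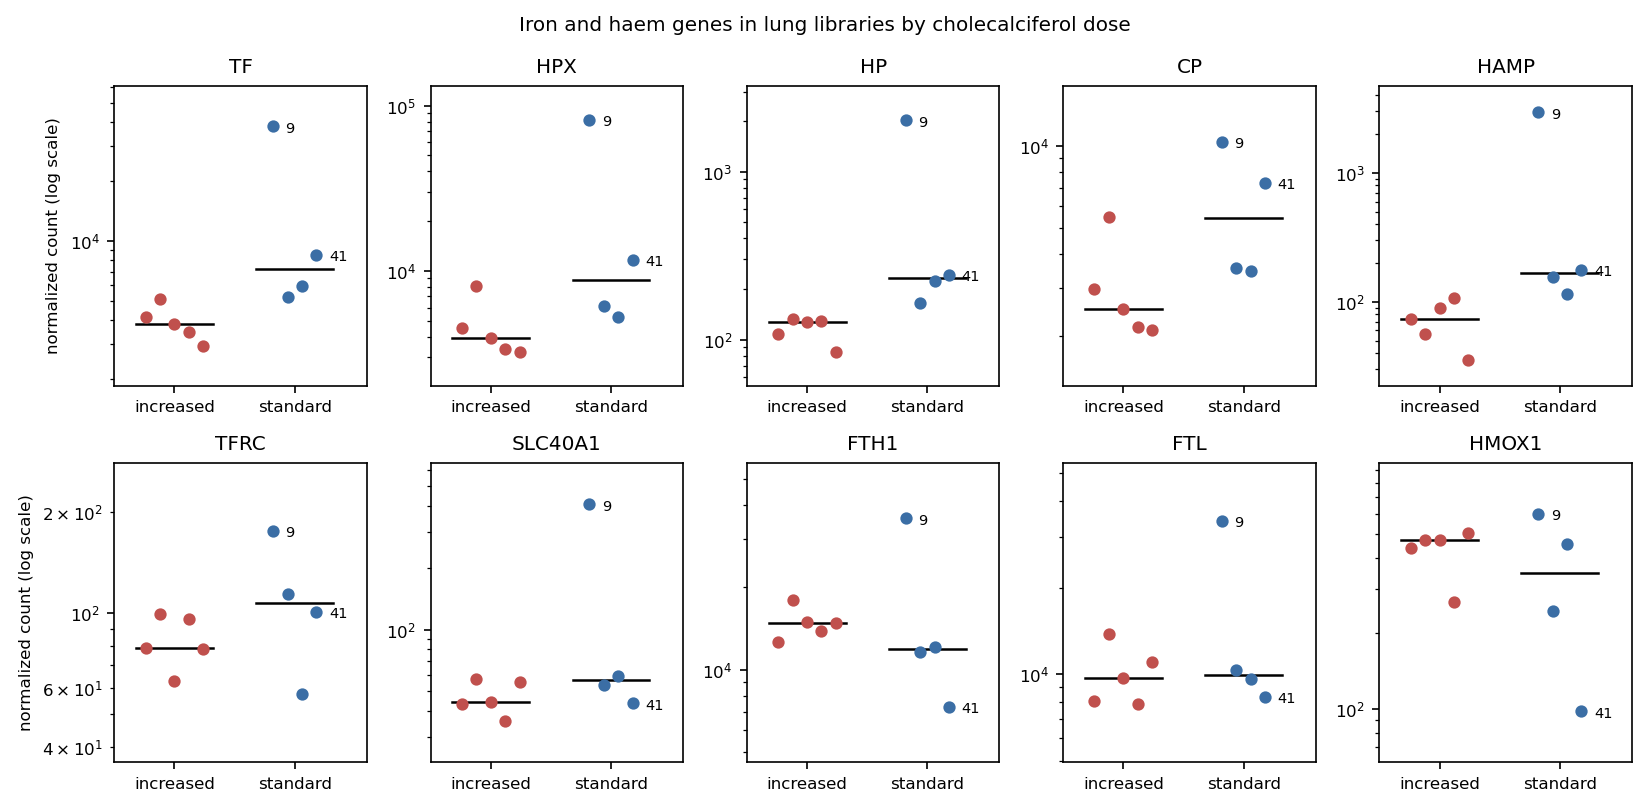
Normalized count (log scale) of each of the 10 genes in the 5 increased dose libraries (red, left) and the 4 standard dose libraries (blue, right), with 1 point per library, a line at the group median, and standard dose replicates 9 and 41 labelled. Replicate 9 is the highest of the 9 libraries in every panel, and for TF, HP and HAMP all red points lie below all blue points.

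TF, the gene of the plasma iron carrier transferrin (ENSSSCG00000011640, chr13:74930655-74972763, plus strand), had lower counts in every increased dose library than in any standard dose library. It stood at 4143, 5081, 3813, 3450.1 and 2962 normalized counts in increased dose replicates 3, 19, 27, 51 and 59, against 37894, 5216, 5922 and 8509.8 in standard dose replicates 9, 17, 33 and 41. The gap between the groups is narrow, since the highest increased dose library and the lowest standard dose library differ by little, and replicate 9 stands far above the rest. The mean was 3889.5 ± 797 at the increased dose (SD, n = 5) and 14386 ± 15736 at the standard dose (SD, n = 4). The log2 fold change, on the scale of log2 of the normalized count plus 1 as for all changes here, was −1.38 (SE 0.48, 95% interval −2.43 to −0.34, limma adjusted p = 0.397). The exact two-sided permutation test gave p = 0.00794, the smallest that the 126 splits of 9 libraries allow, and 0.281 after adjustment over all genes tested, of which 1531 (12.3%) had an unadjusted permutation p under 0.05. Without replicate 9 the change was −0.74 (SE 0.24, limma adjusted p = 0.494), and without replicates 9 and 41 it was −0.54 (SE 0.22). DESeq2 on the recovered reads gave −1.89 with an adjusted p of 0.0309, and edgeR an adjusted p of 0.191. Groups that do not overlap in this direction were found in 250 of 12446 genes (2.01%), and TF, HP and HAMP are 3 of them.

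HPX encodes hemopexin, the plasma scavenger of free haem (ENSSSCG00000014626, chr9:3288172-3297047, plus strand). Its counts were 4511, 8066, 3909, 3383 and 3217 in increased dose replicates 3, 19, 27, 51 and 59, against 82323, 6090.3, 5291 and 11619 in standard dose replicates 9, 17, 33 and 41. The groups overlap, because increased dose replicate 19 lies above standard dose replicates 17 and 33. Its log2 fold change was −1.61 (SE 0.66, limma adjusted p = 0.401), and the exact two-sided permutation p was 0.0397, or 0.368 adjusted over all genes tested. It was −0.73 without replicate 9 and −0.39 without replicates 9 and 41.

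HP, the gene of the haemoglobin binder haptoglobin (ENSSSCG00000002749, chr6:14980382-14988813, plus strand), was counted at 109, 133, 128, 129.8 and 84.7 in increased dose replicates 3, 19, 27, 51 and 59. In standard dose replicates 9, 17, 33 and 41 it was at 2024, 165, 224 and 242. All increased dose values lie below all standard dose values, also with replicate 9 set aside, as in 359 of 12446 genes (2.88%). The log2 fold change was −1.66 (SE 0.58, limma adjusted p = 0.397), with −0.85 (SE 0.25) without replicate 9 and −0.74 (SE 0.27) without replicates 9 and 41. The exact two-sided permutation p was 0.00794, and 0.281 after adjustment over all genes tested. The HP row is uncertain, since it runs 3568 bases past the end of the RefSeq gene at 14985245 and is overlapped there on the other strand by TXNL4B, which had 11 reads over all libraries. Another gene on the other strand, ENSSSCG00000050689, lies at the RefSeq 3′ end and had 0 reads.

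CP encodes ceruloplasmin, the copper protein that oxidises iron so that transferrin can bind it (ENSSSCG00000011700, chr13:89396708-89463476, minus strand). It had 2974, 5482, 2527, 2157 and 2105 normalized counts in increased dose replicates 3, 19, 27, 51 and 59, against 10364, 3553, 3469 and 7316 in standard dose replicates 9, 17, 33 and 41. As for HPX, increased dose replicate 19 lies within the standard dose range. For CP the log2 fold change was −0.96 (SE 0.38, limma adjusted p = 0.401), with an exact two-sided permutation p of 0.0794, and it was −0.66 without replicate 9 and −0.30 (SE 0.30, limma adjusted p = 0.974) without replicates 9 and 41. HPS3 overlaps the gene on the other strand and had 163 reads in all libraries together.

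HAMP, the gene of hepcidin (ENSSSCG00000035436, chr6:44784160-44787305, plus strand), showed the largest fitted change of the 10 genes. Its counts were low in all libraries but one, with 74.2, 56.3, 89.7, 106 and 35.6 in increased dose replicates 3, 19, 27, 51 and 59, against 2954, 156, 115 and 178 in standard dose replicates 9, 17, 33 and 41. These values rest on 37 to 1980 reads per library. The groups do not overlap, and replicate 9 is 30.2 times the median of the other 8 libraries. The mean was 72.4 ± 27.6 at the increased dose (SD, n = 5) and 851 ± 1402 at the standard dose (SD, n = 4). The log2 fold change was −2.19 (SE 0.77, 95% interval −3.85 to −0.53, limma adjusted p = 0.397), with an exact two-sided permutation p of 0.00794, or 0.281 adjusted over all genes tested. It was −1.11 (SE 0.35) without replicate 9 and −0.97 (SE 0.38) without replicates 9 and 41.

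Replicate 9 thus carried a large share of the difference in TF, HPX, HP and HAMP. Its share was smaller for CP, with −0.96 over all libraries and −0.66 without replicate 9. Replicate 9 stood above the median of the other 8 libraries by 30.2 times for HAMP, 16.8 for HPX, 15.4 for HP, 8.22 for TF and 3.22 for CP. The 5 genes together took 0.183 to 0.373% of the reads at the increased dose, against 1.96% in replicate 9, 0.585% in replicate 41 and 0.319 to 0.321% in the other standard dose libraries. The hepatocyte markers named above were high in the same libraries, and their part in the dose difference was not tested. In bulk tissue, the share of a cell type or of another tissue in the sample and the RNA per cell cannot be told apart.

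**Figure D2:**
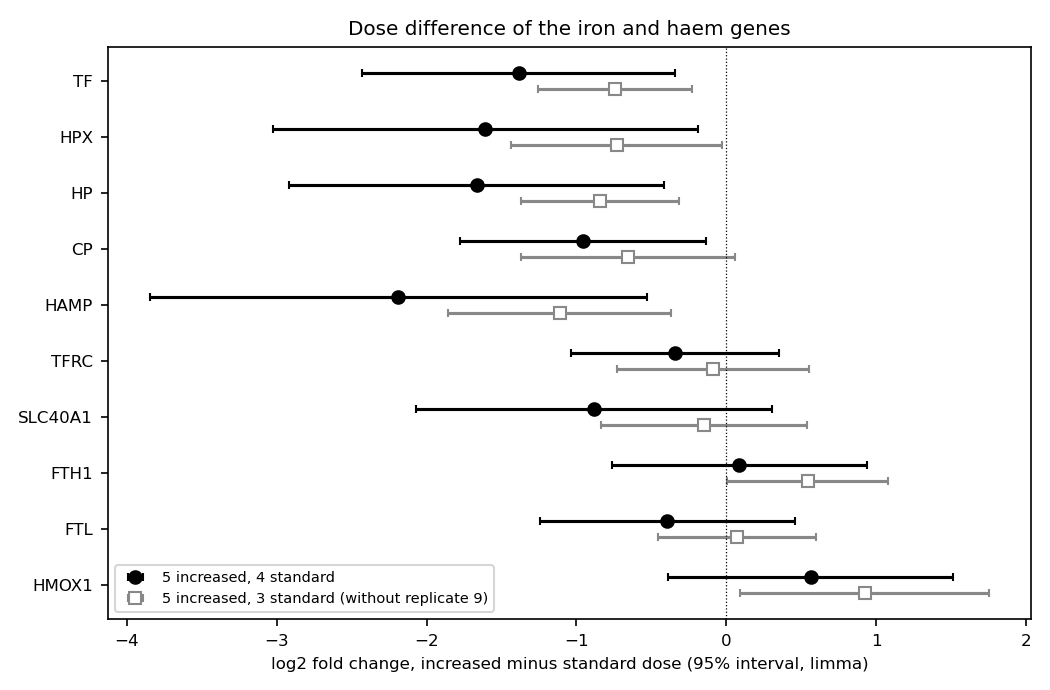
Log2 fold change of each gene, increased minus standard dose, with its 95% interval from limma, for all 9 libraries (filled circles) and without standard dose replicate 9 (open squares). TF, HPX, HP, CP and HAMP lie left of 0 in both, and each lies nearer to 0 without replicate 9, as for HAMP with −2.19 over all libraries and −1.11 without that one.

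A ratio within a library does not depend on the scaling between libraries, so the 5 genes were also set against ALB, the gene of serum albumin. ALB had 11163 to 22650.3 normalized counts at the increased dose, against 93890 in replicate 9, 41517 in replicate 41 and 18639 and 21240 in standard dose replicates 17 and 33. TF was 22.4 to 26.7% of ALB at the increased dose, with a median of 24.5%, against 40.4% in replicate 9, 20.5% in replicate 41 and 27.9 and 28.0% in the other standard dose libraries. TF therefore varied far less relative to ALB than in itself, and the dose difference of the log2 ratio was −0.19, −0.020 without replicate 9, and −0.17 without replicates 9 and 41, of which 41 had the lowest ratio.

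HPX was 25.1 to 35.6% of ALB at the increased dose, against 87.7% in replicate 9 and 24.9 to 32.7% in the other 3 standard dose libraries. HAMP was 0.249 to 0.821% of ALB at the increased dose, against 3.15% in replicate 9 and 0.429 to 0.839% in the other 3. HP was 0.588 to 1.00% against 2.16% in replicate 9 and 0.582 to 1.06% in the others. Thus HPX, HP and HAMP, like TF, were highest relative to ALB in replicate 9, and over the remaining libraries the doses overlapped for HPX, HP and HAMP. CP went the other way in replicate 9, at 11.04% of ALB, its lowest ratio. It was 16.2 to 24.2% at the increased dose and 16.3 to 19.1% in the other 3 standard dose libraries, so these overlap. The log2 ratio differed between the doses by −0.41 for HPX, −0.47 for HP, −0.99 for HAMP and 0.24 for CP, and by −0.0064, −0.12, −0.39 and 0.069 without replicate 9. Without replicates 9 and 41 the differences were −0.016 for HPX, −0.37 for HP, −0.60 for HAMP and 0.068 for CP. These ratios were not tested.

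**Figure D3:**
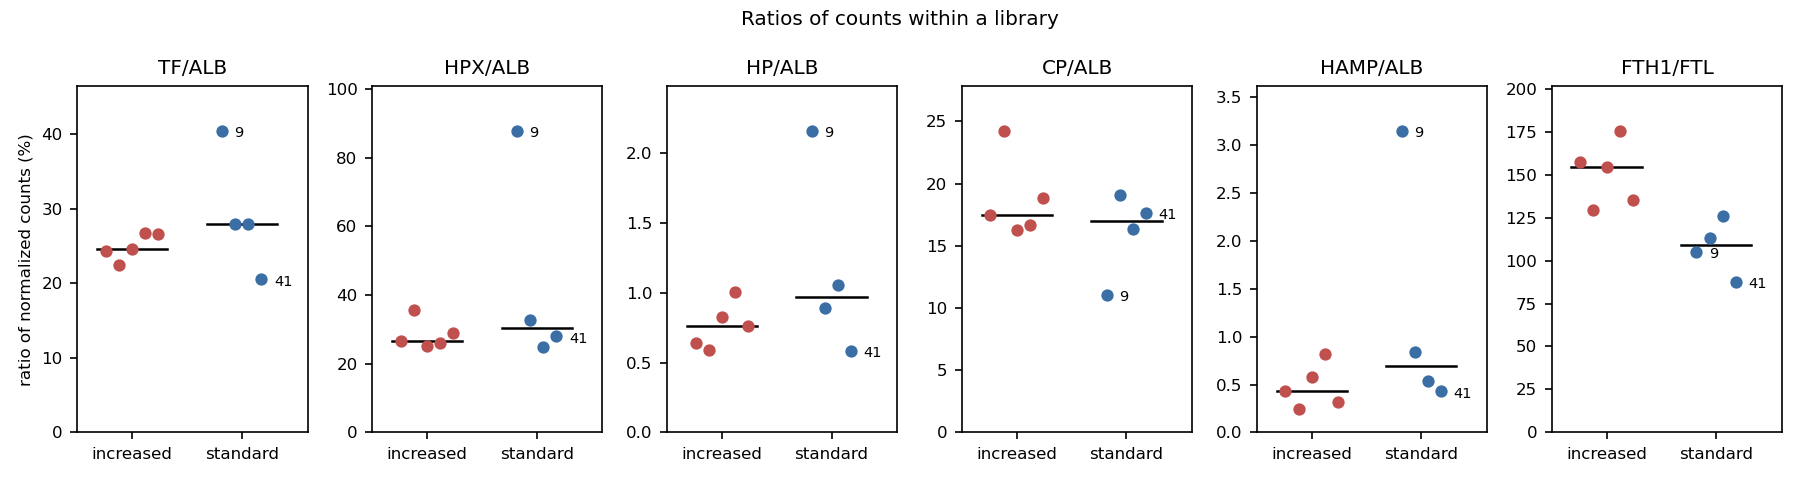
Ratio of normalized counts within each library, in percent, for TF, HPX, HP, CP and HAMP over ALB and for FTH1 over FTL, with increased dose libraries in red at the left, standard dose libraries in blue at the right, and a line at the group median. Replicate 9 is the highest point for TF, HPX, HP and HAMP over ALB and the lowest for CP over ALB, and for FTH1 over FTL all red points lie above all blue points.

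Of the genes that act inside cells, none reached an unadjusted limma p under 0.05 with all 9 libraries. TFRC, the receptor that takes up transferrin (ENSSSCG00000011848, chr13:133970985-134000276, plus strand), had 62.7 to 99.8 normalized counts at the increased dose, with a median of 78.7. At the standard dose it had 176, 114, 57.4 and 101 in replicates 9, 17, 33 and 41, so that the lowest and the highest library both belong to this group. For TFRC the log2 fold change was −0.34 (SE 0.32, 95% interval −1.03 to 0.35, limma adjusted p = 0.644), and 0.015 without replicates 9 and 41.

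SLC40A1, the gene of the iron exporter ferroportin (ENSSSCG00000027157, chr15:94141988-94167408, minus strand), had the lowest median count of the 10 at either dose. It was at 43.4, 57.2, 44.4, 36.1 and 55.8 in increased dose replicates 3, 19, 27, 51 and 59, against 407, 53.9, 59.2 and 43.7 in standard dose replicates 9, 17, 33 and 41. Apart from replicate 9, the groups share the same range. For SLC40A1 the log2 fold change was −0.88 (SE 0.55, limma adjusted p = 0.480), and −0.15 (SE 0.32) without replicate 9, with a 95% interval from −0.83 to 0.54. It was −0.27 (SE 0.35) without replicates 9 and 41, and −1.21 without replicate 41 alone.

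FTH1 and FTL, the heavy and light chains of ferritin, had the highest median counts of the 10 genes at either dose, although HPX and TF exceeded both in standard dose replicates 9 and 41. FTH1 (chr2:9535148-9537974, plus strand) had 12628, 17918, 14992, 13840.5 and 14847 normalized counts in increased dose replicates 3, 19, 27, 51 and 59, against 35774, 11650.5, 12128 and 7326 in standard dose replicates 9, 17, 33 and 41. All 5 increased dose libraries lie above 3 of the standard dose libraries and below replicate 9. A log2 fold change of 0.088 was fitted (SE 0.39, 95% interval −0.76 to 0.94, limma adjusted p = 0.937). It was 0.54 (SE 0.25, limma adjusted p = 0.531) without replicate 9, −0.22 without replicate 41 and 0.31 without both. Increased dose values above all standard dose values other than replicate 9 were found in 307 of 12446 genes (2.47%).

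FTL (ENSSSCG00000003153, chr6:54231172-54232750, plus strand) had 8036, 13815, 9692, 7896 and 10979 normalized counts in increased dose replicates 3, 19, 27, 51 and 59. The standard dose replicates 9, 17, 33 and 41 had 33985, 10299, 9626 and 8344, so the groups overlap, and replicate 9 alone stands high. The log2 fold change was −0.39 (SE 0.39, limma adjusted p = 0.667), with 0.071 (SE 0.24) without replicate 9, −0.60 without replicate 41 and −0.014 (SE 0.25) without both. Ferritin genes have copies elsewhere in mammalian genomes, so both counts are uncertain to the extent that reads also match such copies.

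The chains of ferritin were also compared within each library. Heavy chain counts were 157, 129.7, 155, 175 and 135% of light chain counts in increased dose replicates 3, 19, 27, 51 and 59, against 105, 113, 126 and 87.8% in standard dose replicates 9, 17, 33 and 41. The groups do not overlap, and the difference in the log2 ratio was 0.48, or 0.47 without replicate 9. This ratio was looked at after the values of the members had been seen, so it is a description without a test. How many other pairs of genes separate the doses in this way was not counted.

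HMOX1, the gene of haem oxygenase 1 (ENSSSCG00000039745, on an unplaced scaffold), had 438, 473, 471, 267 and 506 normalized counts in increased dose replicates 3, 19, 27, 51 and 59. It had 603, 245, 453 and 97.4 in standard dose replicates 9, 17, 33 and 41, and replicate 41, with the fewest macrophage marker counts, is the lowest of all. The groups overlap. Its log2 fold change was 0.56 (SE 0.44, limma adjusted p = 0.573), with 0.92 (SE 0.39, limma adjusted p = 0.513) without replicate 9, 0.050 without replicate 41 and 0.33 (SE 0.28) without both. Macrophage markers summed to 14350 to 22953 at the increased dose and to 3921 to 16931 at the standard dose. Replicate 9, the highest library for HMOX1, had a sum of 11390, below every increased dose library. The part of these markers in the HMOX1 values was not tested.

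Replicate 9 was the highest library for all 10 genes in normalized counts, as for 3626 of 12446 genes tested (29.1%). As a share of the reads of each library it was the highest for 8 of the 10, with CP and HMOX1 the exceptions, as for 2150 genes (17.3%). By median at the increased dose the genes ran in the order FTH1, FTL, HPX, TF, CP, HMOX1, HP, TFRC, HAMP and SLC40A1, at 14847, 9692, 3909, 3813, 2527, 471, 128, 78.7, 74.2 and 44.4 normalized counts. The ranges of neighbours in this order overlap over the 5 increased dose libraries except between CP and HMOX1 and between HMOX1 and HP. Counts of 3′ ends do not scale with transcript length, so these levels need no correction for it. At the standard dose, HAMP lay above TFRC in all 4 libraries.

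How levels moved together is given as a description over 9 libraries that share the outlying replicate 9. Pearson's r on the log2 scale was 0.987 between TF and HPX, and 0.924 without replicate 9. It was 0.916 between HPX and CP, and 0.995 without replicate 9. Other plasma pairs were looser, with 0.746 between CP and HAMP and 0.443 without replicate 9. Among the genes that act inside cells, SLC40A1 and FTL had 0.966, or 0.774 without replicate 9, and FTH1 and HMOX1 had 0.764, or 0.870 without it. Between TF and FTH1 it was 0.57 over all libraries and −0.73 without replicate 9, so the sign of that relation rests on a single library. Most like TF were SLC7A2, HRG and KNG1 (r = 0.998, 0.998 and 0.997, or 0.990, 0.989 and 0.987 without replicate 9). For SLC40A1 they were RNF26, PINK1 and ARMC6 (0.992, 0.992 and 0.991, or 0.819, 0.906 and 0.857). For FTH1 they were ZFAND2B, SEC31A and CNPY3 (0.978, 0.973 and 0.967, or 0.934, 0.921 and 0.910). For HMOX1 they were NF2, LAMB2 and BABAM2 (0.963, 0.956 and 0.956, or 0.958, 0.959 and 0.952). An r over 0.95 was reached by 389 genes (3.13%) with TF, 109 (0.876%) with SLC40A1, 11 (0.0884%) with FTH1 and 4 (0.0321%) with HMOX1. Without replicate 9 these were 89, 2, 62 and 42, so they fell for TF and SLC40A1 and rose for FTH1 and HMOX1.

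The surrounding pathway genes, taken from lists chosen from general knowledge, included none that limma or edgeR called between the doses. Of 20 genes of cellular iron uptake and handling, 14 were tested, with a median log2 fold change of −0.21 and, at an unadjusted limma p under 0.05, 1 higher and 3 lower. SLC11A1, the iron transporter of macrophage phagosomes, was the higher one. It had 618 ± 197 normalized counts at the increased dose against 340 ± 98.9 at the standard dose (SD, n = 5 and 4). Its log2 fold change was 0.85 (SE 0.29, limma adjusted p = 0.397), and 0.64 without replicate 9. The doses overlap, at 401 to 905 counts against 212 to 452, with replicate 9 the lowest. The part of the macrophage markers in the SLC11A1 values was not tested. TFR2, a second transferrin receptor found mainly in liver, had 56.8 to 110.3 counts at the increased dose against 3097 in replicate 9 and 123 to 212 in the other standard dose libraries, a change of −2.04 (−0.95 without replicate 9). SLC11A2 and STEAP4 had −0.70 and −0.86, or −0.48 and −0.62 without replicate 9. Without that library, 1 gene of the list was higher and 1 lower at the same level. PCBP2, an iron chaperone with high counts, had −0.35 (SE 0.20), or −0.23 without replicate 9.

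Of 20 regulators of hepcidin, 17 were tested, with a median of −0.086, and 1 stood higher and 2 lower at an unadjusted limma p under 0.05. HJV, the BMP co-receptor that drives hepcidin expression in liver and is also made in skeletal muscle, had 139 ± 39.5 normalized counts at the increased dose against 341 ± 161 at the standard dose (SD, n = 5 and 4). Its limma change was −1.22 (SE 0.34, adjusted p = 0.397), and −0.95 without replicate 9. DESeq2 gave an adjusted p of 0.0417. TMPRSS6, the liver protease that cuts hemojuvelin, had −2.21 and −1.06 without replicate 9, and ACVR1, a BMP receptor, had 0.67 and 0.42. Without replicate 9, 0 genes were higher and 1 lower at that level. HJV was highest in standard dose replicate 9, at 552, where the hepatocyte markers were highest and the skeletal muscle markers lowest, at a sum of 32248, against 54730 to 129214 at the increased dose. The part of these markers in the values of HJV and TMPRSS6 was not tested. The most abundant regulators, SMAD6, IL6R and STAT3, had 0.68, −0.49 and 0.14, none at an unadjusted limma p under 0.05.

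All 11 genes of iron sensing were tested, and 0 reached an unadjusted limma p under 0.05 (median −0.16). Among them IREB2 is an iron regulatory protein that binds the elements printed above. It had 464 ± 53.8 normalized counts at the increased dose against 627 ± 284 at the standard dose (SD, n = 5 and 4). Its change was −0.35 (SE 0.27), and −0.070 without replicate 9, which held 1040 counts. BACH1, the haem-sensing repressor of HMOX1, had −0.53 (SE 0.29). EPAS1, a hypoxia factor rich in lung endothelium, had 0.75 (SE 0.36), or 0.63 without replicate 9. Its counts were 4904 to 5932 at the increased dose and 1448 to 5521 at the standard dose. Endothelial markers summed to 2093 in replicate 9 and 2552 in replicate 41, against 3592 to 4988 at the increased dose and 4386 to 4762 in replicates 17 and 33. The part of these markers in the EPAS1 values was not tested.

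Of the 9 genes of haem synthesis, all tested, UROS and CPOX were lower at an unadjusted limma p under 0.05 and 0 were higher (median −0.10). UROS had 218 to 256.8 counts at the increased dose against 977 in replicate 9 and 272 to 337 in the other standard dose libraries, with no overlap between the doses and a change of −0.77 (−0.36 without replicate 9). CPOX had −0.78 and ALAD −0.91, or −0.43 and −0.33 without replicate 9, and ALAS1, the rate-limiting enzyme outside red cells, had −0.23. Without replicate 9, 0 genes of the list stood at that level in either direction. The erythroid marker HBB and its companions, 9 of 11 found, summed to 5323 to 8560.2 counts at the increased dose and 1909 to 15027 at the standard dose.

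Haem uptake, export and breakdown had a median of −0.57 over 11 genes tested of 12, the lowest of the 6 lists with all libraries. Without replicate 9 its median was −0.11, and that of cellular iron uptake and handling was lower, at −0.19. At an unadjusted limma p under 0.05 stood 2 higher and 2 lower. CD163, the macrophage receptor for haemoglobin bound to haptoglobin, had 1345 ± 304 normalized counts at the increased dose against 798 ± 459 at the standard dose (SD, n = 5 and 4), a change of 0.87 (SE 0.32, limma adjusted p = 0.397) that was 0.84 without replicate 9. FLVCR2 had 1.04 (SE 0.46), or 0.73 without replicate 9. CD163 is itself one of the macrophage markers, whose sum was lowest in standard dose replicate 41. Counts of CD163 ran from 518 to 1477 at the standard dose, with a median of 599. The part of the markers in its values was not tested. AMBP, the liver precursor of the haem-binding alpha-1-microglobulin, had 1218 to 2483 counts at the increased dose against 18220.3 in replicate 9 and 2144 to 4283 in the other standard dose libraries, a change of −1.43, or −0.75 without replicate 9. FLVCR1, long described as a haem exporter, had a limma change of −1.93. Its counts were 1.81 to 18.5 at the increased dose, against 210 in replicate 9 and 9.57 to 26.9 in the other standard dose libraries. DESeq2 gave an adjusted p of 0.0309 for AMBP and 0.0417 for FLVCR1. FLVCR1 passed the filter on low counts only through replicate 9, so no dose difference is read from its change or its p. Without that library, 1 gene of the list was higher and 1 lower at an unadjusted limma p under 0.05.

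Of 13 genes of mitochondrial iron and iron-sulfur cluster assembly, 11 were tested, with a median of 0.039, and 2 stood higher (HSCB at 1.13 and ABCB10 at 0.74) and 2 lower (CISD1 at −0.66 and LYRM4 at −0.79) at an unadjusted limma p under 0.05. CISD1, an iron-sulfur protein of the outer mitochondrial membrane, had 134 to 175 counts at the increased dose. It had 379 in replicate 9 and 199 to 251 in the other standard dose libraries, so the doses did not overlap. Without replicate 9, CISD1 had −0.47, LYRM4 −0.50, HSCB 0.94 and ABCB10 0.57. The abundant genes SLC25A28, ISCU and GLRX5 had 0.23, 0.32 and −0.78, none of them at an unadjusted limma p under 0.05, and GLRX5 had −0.35 without replicate 9. Without that library, 0 genes of the list were higher and 1 lower at that level. Replicate 9 held the highest count for 8 of the 11 tested genes of haem uptake, export and breakdown and for 4 of the 11 of the mitochondrial list.

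**Figure D4:**
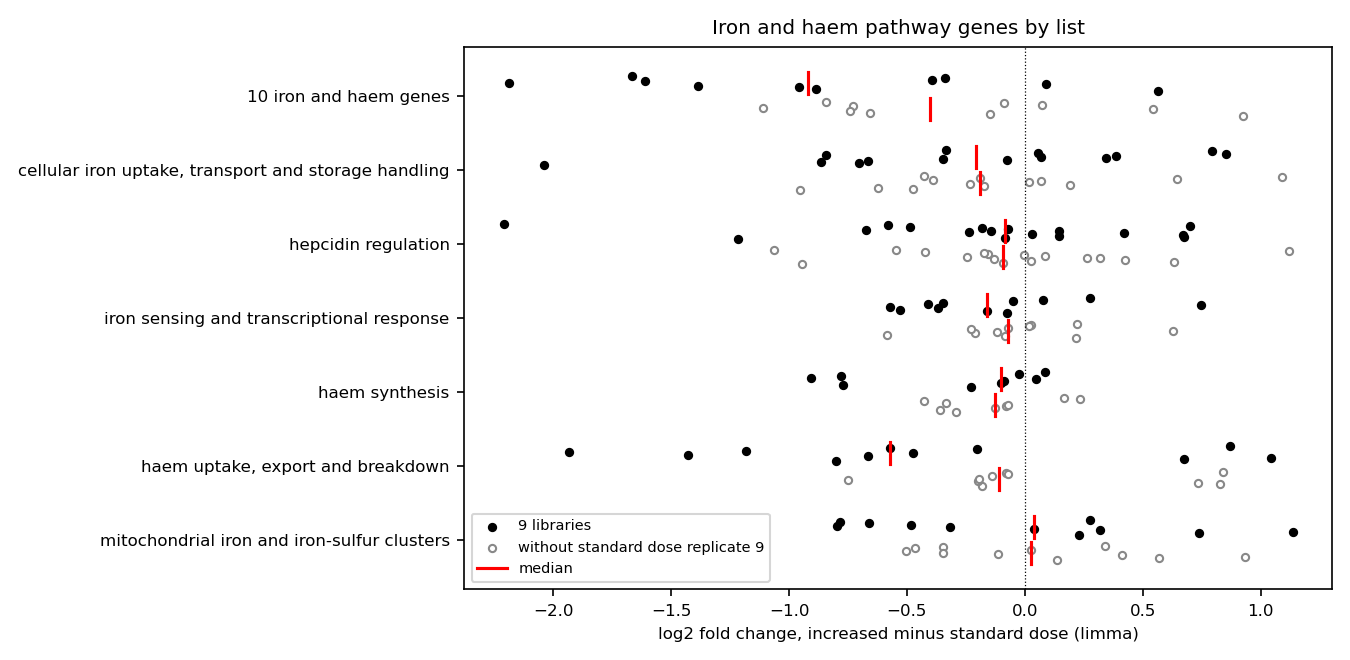
Log2 fold change, increased minus standard dose, of each tested gene (points) in the 10 iron and haem genes and in 6 pathway lists, with all 9 libraries (filled) and without standard dose replicate 9 (open), and the median of each as a red bar. The median of the 10 genes is −0.92 with all libraries and −0.40 without replicate 9, and that of the haem uptake list is −0.57 and −0.11.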

How the data were processed

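The authors prepared 3′ mRNA libraries with the QuantSeq FWD kit, used FastQC 11.8 for read quality, FLEXBAR 3.5.0 for trimming and TopHat 2.1.1 for alignment to the Sscrofa11.1 genome. Gene counts came from HTSeq-count 0.11.1 on Ensembl annotation 96, and alignment statistics from Samtools 1.9. RNA was taken from 10 animals, and 1 library was rejected by the authors. The deposited signal values are gene counts divided by a DESeq2 size factor per library. The deposited log2 fold changes, their standard errors, the score (the Wald statistic), the p-values and the adjusted p-values are the authors' own comparison and were not used. Positions came from a deposited sheet.

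Every value was a whole multiple of the value of 1 read (100.0% within 0.01), so reads were recovered. On these reads DESeq2 called 195 genes and edgeR called 0.

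limma 3.58.1 was applied to all genes whose mean over the libraries exceeded 20 (mean-variance trend, log2 of the count plus a pseudocount of 1, two-sided, Benjamini-Hochberg adjustment, threshold 0.05), and with exact permutation tests. Nothing in the sources says that libraries share a batch, and the p-values measure the spread between these animals. The members and lists were chosen with earlier results of these data known. Named are the members, ALB, the 3 genes of each list with the highest counts and the 1 with the smallest p, the 3 genes most like 4 of the members, and further list genes with an unadjusted p under 0.05, which were chosen after their values were seen. Alternatives were pseudocounts of 0.5 and 5, no filter or at least 10 in at least 4 libraries, TMM factors, array weights, edgeR 4.0.16, DESeq2 1.42.0, and libraries left out. The ratio of FTH1 to FTL was added after the data were seen. Replicate 33 follows its title, while its column is named with another number. Unnamed rows were named from the Ensembl name table (223) or by a reciprocal overlap of at least 80% with a RefSeq gene (540), and the HP row by position with less overlap. Iron-responsive elements were read from the RefSeq Sscrofa11.1 genome. The fitting code was checked with simulated counts. The software was R 4.3.3 and Python 3.11.15 with scipy 1.17.1, numpy 2.4.6, pandas 2.3.3 and, for plots, matplotlib 3.10.9. Methylation and plasma data are not analysed here.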

Additional observations from a re-analysis of the deposited data

Results flagged for a closer look

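Dixon's test was run on normalized counts and percents, not on the log2 scale used for the changes. Chance sets a library apart in about 5% of groups if values are normally spread, which skewed counts need not be. In 12 of 32 groups of values, 1 library stood apart from the others of its dose, and these values share libraries. At the standard dose it was replicate 9 each time: TF at 37894, HPX at 82323, HP at 2024, HAMP at 2954, SLC40A1 at 407, FTH1 at 35774 and FTL at 33985 normalized counts. The same library stood apart for HPX at 87.7% of ALB and HAMP at 3.15% of ALB, while its TF and HP ratios to ALB were the highest of their group without standing apart by that test.

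At the increased dose, replicate 19 stood above the other 4 libraries for HPX at 8066 and CP at 5482 normalized counts, and its ALB was also the highest of the group at 22650.3. HMOX1 was low in increased dose replicate 51, at 267 normalized counts.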

How the results depend on the processing

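The number of genes called was 0 with limma and stayed 0 under 16 alternatives, against 195 with DESeq2 on the recovered reads and 2 with array weights (HEXIM1 and HSP70.2, neither a gene of iron or haem). TF was called by DESeq2 alone, at −1.89. The direction turned for TFRC without standard dose replicates 9 and 41 (0.015), for FTH1 with edgeR (−0.15), with DESeq2 (−0.17) and without standard dose replicate 41 (−0.22), and for FTL without standard dose replicate 9 (0.071); the cause was not tested. TF, HPX, HP, CP, HAMP and SLC40A1 stayed negative and HMOX1 positive in every alternative run. With each library left out in turn, the number of genes called was 0 each time, and the log2 fold changes ran from −1.70 to −0.74 for TF, −2.05 to −0.73 for HPX, −2.05 to −0.85 for HP, −1.19 to −0.66 for CP, −2.67 to −1.11 for HAMP, −0.62 to −0.089 for TFRC, −1.21 to −0.15 for SLC40A1, −0.22 to 0.54 for FTH1, −0.60 to 0.071 for FTL and 0.050 to 0.92 for HMOX1. The weakest values of TF, HPX, HP, CP, HAMP and SLC40A1 came without standard dose replicate 9, and those of HMOX1 without standard dose replicate 41. The log2 ratios to ALB ran from −0.35 to −0.020 for TF, −0.61 to −0.0064 for HPX, −0.75 to −0.12 for HP, 0.069 to 0.33 for CP and −1.34 to −0.39 for HAMP. No paired analysis was possible because the doses share no replicate numbers. With 5 against 4 animals the smallest exact permutation p is 0.00794, and SLC40A1 and HAMP rest on as few as 35 and 37 reads in a library.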
